A study of Mus musculus with 42 samples.

Results

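The genes described here are the protein-coding members of the mouse histone clusters, taken from the rows whose gene name starts with Hist1h, Hist2h, Hist3h or Hist4h. They numbered 52 of 27409 rows in the testes table, split by name into 4 H1, 16 H2A, 16 H2B, 7 H3 and 9 H4 genes. The brain table held 67 of 50765 rows, with 6 H1, 18 H2A, 18 H2B, 12 H3 and 13 H4 genes. All 52 genes of the testes table were also in the brain table. The mice carried, or were controls for, a Cas9-made deletion of 89 bp in Pcif1, which encodes the methyltransferase that makes m6Am, the methylated A found next to the cap of many mRNAs. Per the labels' protocols, the deletion lies between exon and intron, takes out catalytic residues and brings in a stop codon. Embryos of a C57BL/6J by DBA/2J hybrid were injected, and founders of this single line were crossed to C57BL/6J. Testes of adult heterozygous (HET) and homozygous knockout (KO) mice gave 3 input and 3 immunoprecipitated (IP) libraries each by m6Am-Exo-Seq, which keeps capped RNA ends and pulls them down with an m6A antibody that recognises m6Am as well. Brains of adult wild-type (WT) and KO mice gave 3 input and 3 ribosome footprint libraries each. HET testes carry the deletion on 1 allele, so no library here represents WT testes. All 12 libraries of an assay came from whole tissue, so fewer cells of a type and less RNA per cell cannot be told apart.

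Core histones H2A, H2B, H3 and H4 wrap DNA into nucleosomes, and H1 binds the linker between them. Most cluster genes are replication-dependent: they are intronless, are transcribed mainly in S phase, and make mRNAs that end in a stem-loop in place of a poly(A) tail. Hist1h1t, Hist1h2aa and Hist1h2ba encode the testis histones H1t, TH2A and TH2B of male germ cells, and in spermatids most histones are exchanged for transition proteins and then protamines. The sources used here do not say whether polyadenylated RNA was selected.

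Promoter windows are shown first because the histone classes differed there and because m6Am requires an A at the start of transcription. RefSeq gave 1 promoter window on GRCm38.p6 for 60 of the 67 genes. The windows below run from 120 bases before the annotated start to 10 bases after it, 5′ to 3′ along the gene. Capitals mark the start base and every complete match, on either strand, to the TATA box searched as TATAAA, the CCAAT box searched by those letters, the octamer searched as ATTTGCAT or the H1 box searched as AAACACA. The first set holds the testis H1 gene, the H2B gene with the largest testes input signal, the testis H2B gene, and a pair of H2A copies.
Hist1h1t, chr13:23695691-23695821, plus strand: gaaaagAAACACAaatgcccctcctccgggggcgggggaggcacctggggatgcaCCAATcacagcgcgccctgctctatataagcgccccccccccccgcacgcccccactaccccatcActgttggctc
Hist1h2bp, chr13:21787368-21787498, plus strand: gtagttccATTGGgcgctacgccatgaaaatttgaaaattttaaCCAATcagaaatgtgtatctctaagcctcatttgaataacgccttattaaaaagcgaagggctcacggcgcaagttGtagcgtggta
Hist1h2ba, chr13:23934146-23934276, minus strand: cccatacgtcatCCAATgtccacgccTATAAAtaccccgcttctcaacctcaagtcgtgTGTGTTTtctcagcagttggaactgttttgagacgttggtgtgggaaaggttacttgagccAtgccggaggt
Hist2h2aa1, chr3:96245377-96245507, plus strand: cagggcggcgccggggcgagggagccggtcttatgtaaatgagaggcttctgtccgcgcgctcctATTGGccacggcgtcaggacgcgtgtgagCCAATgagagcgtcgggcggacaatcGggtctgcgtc
Hist2h2aa2, chr3:96240364-96240494, minus strand: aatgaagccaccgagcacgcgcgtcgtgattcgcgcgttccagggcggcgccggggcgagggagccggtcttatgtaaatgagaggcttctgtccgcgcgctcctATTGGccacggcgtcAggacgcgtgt
In the Hist1h1t window the H1 box lies upstream of a CCAAT match, and the annotated start is A. Hist1h2bp starts at G in RefSeq. The Hist1h2ba model starts at its ATG, so it does not give the base at which transcription begins. Hist2h2aa1 and Hist2h2aa2 share a run of 219 identical bases in the same orientation, and their annotated starts are G and A.

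The second set holds the H4 genes that the brain results turn on.
Hist1h4a, chr13:23761239-23761369, minus strand: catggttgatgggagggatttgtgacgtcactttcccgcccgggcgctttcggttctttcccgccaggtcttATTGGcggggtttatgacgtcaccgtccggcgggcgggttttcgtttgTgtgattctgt
Hist4h4, chr6:136804421-136804551, minus strand: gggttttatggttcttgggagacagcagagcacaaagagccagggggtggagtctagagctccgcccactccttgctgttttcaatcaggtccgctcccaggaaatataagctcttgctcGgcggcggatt
Hist1h4k, chr13:21750543-21750673, minus strand: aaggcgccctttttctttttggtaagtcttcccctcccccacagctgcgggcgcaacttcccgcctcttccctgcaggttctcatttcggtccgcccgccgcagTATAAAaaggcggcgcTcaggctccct
Hist1h4a has a CCAAT match on the other strand, Hist4h4 has none of the 4 motifs, and Hist1h4k has a TATA box. Over the full windows, CCAAT was in 51 of 60 histone windows (85%) against 37.41% of the 32851 windows of all genes. All 6 H1, 17 H2A, 15 H2B and 10 H3 windows had it, and 3 of 12 H4 windows did. TATAAA was in 35 of 60 (58.33%) against 13.62% of all windows. The octamer was in 7 of 17 H2A and 6 of 15 H2B windows, in none of the H1, H3 and H4 windows, and in 1.735% of all windows. The H1 box was in 5 of 6 H1 windows against 7.184% of all. The annotated start base was A in 25 of 60 histone windows (41.67%) and in 34.36% of all. Each motif was searched on its own, so a match to one can overlap a match to another, and a match is a description of the letters and not of binding.

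H2A and H2B windows are not independent of each other. RefSeq places 9 pairs of cluster genes head to head, each an H2A beside an H2B gene, and these pairs share runs of 220 to 279 bases read on opposite strands. They include Hist1h2aa with Hist1h2ba, Hist1h2an with Hist1h2bp, and Hist1h2ao with Hist1h2bq. Among the same-strand copies, Hist1h2bq and Hist1h2br share all 300 bases, Hist1h4m and Hist1h4n 285, and Hist2h3c1 and Hist2h3c2 231. These are promoter bases, most of them upstream of the annotated start, and how far the transcripts match was not tested. Histone genes of a class are known to have very similar coding sequences, so reads may fall to either copy and their single values are uncertain. Hist1h2aa and Hist1h2ba also overlap the span of Gm33516, and reads from overlapping genes cannot be separated unless strand was used.

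Values are the authors' normalised signal, a gene's reads divided by a factor for the library and not corrected for gene length. The testes and brain tables were scaled separately, so levels are not compared between them. Sequencing depth in testes was 4224175 to 4907380 reads for HET inputs, 4151226 to 4971554 for KO inputs, 2689591 to 6574479 for HET IP and 1816831 to 4364847 for KO IP. Brain inputs held an estimated 15171376 to 17443749 reads in WT and 5528738 to 16206024 in KO, and footprints 13613499 to 16559686 over both genotypes. Genes with the biotype rRNA took 48.7 to 73.8% of the signal in WT footprints, with replicate 2 highest, and 66.6 to 71.4% in KO footprints. WT footprint replicate 2 stood apart from its group, and results that rest on it are given without it. Pcif1 gene totals do not check the labels, since most of the gene remains outside the deletion: input signal was 252.6 to 387.7 in WT and 200.7 to 259.4 in KO brain, and 5.53 to 10.4 in HET and 1.64 to 7.98 in KO testes. Neuron, oligodendrocyte and astrocyte markers were present in brain, and spermatocyte and spermatid markers in testes.

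In testes a few cluster genes carried almost all of the histone signal. In inputs, Hist2h2aa2 alone (ENSMUSG00000063954, chromosome 3) took 64.1% of the summed signal of the 52 genes, Hist1h2bp 10.2% and Hist1h2ba 7.34%. Of the 52 genes, 10 had a mean input signal of at least 10 and 42 were below it, and 14 were above 0 in all 12 libraries. The gene with the highest mean input signal was Hist1h1t among H1, Hist2h2aa2 among H2A, Hist1h2bp among H2B, Hist2h3c1 among H3 and Hist1h4a among H4. Hist2h3c1 was low, with input means of 15.3 ± 1.68 in HET and 15.0 ± 2.33 in KO (SD of 3 libraries). Members of head-to-head pairs had unequal signal: Hist1h2an lay between 3.16 and 8.31 in all 6 inputs, where Hist1h2bp lay between 175.9 and 291.9.

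The first comparison asks whether cluster histone RNA differed in testes that lack PCIF1. It was lower in KO than in HET inputs for 3 genes and higher for none, out of 11 that passed the filter on low values (3 or more libraries with a signal of 10 or higher). The share of all 11278 tested genes called by limma with Benjamini-Hochberg adjusted p below 0.05 was 6.01% lower and 3.32% higher. The 3 genes were Hist1h2bp, a replication-dependent H2B gene, Hist1h2ba, the testis H2B gene, and Hist2h2aa2, an H2A gene.

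Hist1h2bp (ENSMUSG00000069308, chromosome 13) gave 282.2, 291.9 and 277.2 in HET and 196.7, 182.2 and 175.9 in KO inputs. Its groups were far apart relative to their spread: the log2 fold was -0.62 ± 0.103 (SE, n = 3 per group), with limma adjusted p = 0.00368. Hist1h2ba (ENSMUSG00000050799, chromosome 13) gave 219.0, 217.1 and 237.4 in HET and 61.1, 136.5 and 138.3 in KO. All KO libraries were below all HET libraries, and KO replicate 1 was lowest. Its log2 fold was -1.09 ± 0.235, with limma adjusted p = 0.0133. Leaving out HET replicate 3 raised that adjusted p to 0.0629. Without KO replicate 1 the log2 fold of Hist1h2ba was -0.70.

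Hist2h2aa2 gave 1614, 1638 and 1607 in HET and 1383, 1280 and 1288 in KO inputs. This was a smaller change, a log2 fold of -0.30 ± 0.0731 with limma adjusted p = 0.0231. The call is fragile: it was lost without any 1 of the 3 HET libraries, KO replicate 2 or KO replicate 3 (adjusted p up to 0.0852), and with libraries scaled to equal total signal (adjusted p = 0.0594). With its copy Hist2h2aa1 added, the inputs ranged from 1723 to 1762 for HET and from 1368 to 1481 for KO.

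The other testis genes did not pass the test. Hist1h1t (ENSMUSG00000036211, chromosome 13), the testis linker histone, gave 39.5, 41.6 and 35.8 in HET and 17.7, 30.7 and 42.5 in KO inputs, and the groups overlapped. Its log2 fold was -0.43 ± 0.276 (95% interval -1.02 to 0.16), with limma adjusted p = 0.344. Hist1h2aa, the testis H2A gene, was near the limit of the filter at 11.1, 9.24 and 7.97 in HET and 7.98, 12.7 and 11.5 in KO, with limma adjusted p = 0.811.

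By class, the H2A, H2B and H4 totals of the genotypes did not overlap. Summed H2B signal was 529 to 542 in HET and 276 to 349 in KO inputs, and summed H2A signal was 1862 to 1909 and 1516 to 1611. H4 ranged from 72.1 to 79.8 in HET and 58.9 to 71.8 in KO. H3 (28.5 to 32.3 and 27.7 to 36.8) and H1 (36.6 to 42.5 and 19.5 to 44.2) overlapped. A few genes carried these totals, so they do not show a change across a class. Mean H2B input signal was 535.2 in HET and 324.1 in KO. Hist1h2bp gave 283.8 and 185.0 of it, and Hist1h2ba 224.5 and 112.0. In HET inputs Hist2h2aa1 and Hist2h2aa2 together gave 1737 of a mean H2A signal of 1893, and Hist1h4a gave 49.2 of 76.7 for H4. For 5 of the 11 tested genes every KO input was below every HET input, the 3 called genes with Hist2h2aa1 and Hist1h4a. Groups that do not overlap, in either direction, occurred in 29.8% of all tested genes. The median log2 fold was -0.30 over the 11 genes and -0.00 over all tested genes. All 3 calls were lost when the spread was estimated from all 12 testes libraries, a setting that called 25 of all genes. With equal total signal the calls over all genes were 582 higher and 461 lower, against 374 and 678 as deposited, and the histone calls were 0 higher and 2 lower.

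**Figure D1:**
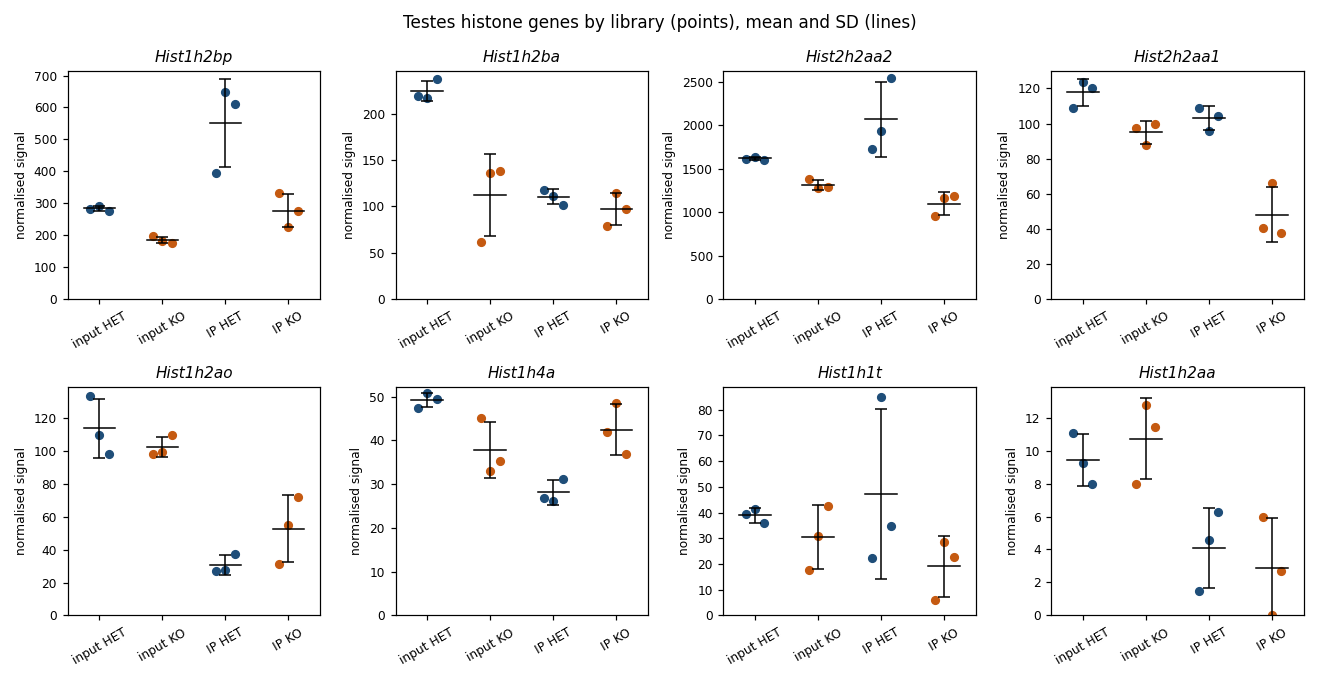
Normalised signal (y axis, each panel from 0) of 8 histone genes in the 12 testes libraries, by group on the x axis; points are libraries, the horizontal line is the mean and the error bar the SD of 3. KO inputs lie below HET inputs for Hist1h2bp, Hist1h2ba and Hist2h2aa2, and the Hist1h1t and Hist1h2aa inputs overlap.

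Germ cell markers moved in the same samples. Summed over 9 genes, round spermatid markers were 8011 to 8936 in HET and 6574 to 7295 in KO inputs. Elongating spermatid markers, also 9 genes, were 14842 to 16522 in HET and 12833 to 13100 in KO. Both spermatid totals lay lower in KO without overlap, as did the H2A and H2B totals, which a few genes carried. Spermatogonia markers (9 genes) ran the other way, at 227.7 to 233.7 in HET and 279.0 to 299.5 in KO, as did the 24 S phase genes, at 1944 to 2050 and 2086 to 2476. Spermatocyte markers (10 genes) were 2147 to 2335 and 2311 to 2594. None of these markers was at 0 in all libraries, and their part in the histone result was not tested. Of the tested markers, 4 of 8 round spermatid and 1 of 7 elongating spermatid genes were lower in KO by limma, against 6.01% of all genes. The 4 included Catsper4 (log2 -0.90), a sperm calcium channel subunit. Of 10 spermatocyte genes 2 were higher, against 3.32% of all genes, and of 6 spermatogonia genes 0 were called.

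Genes that work with histones gave these calls in the same comparison, where 9.33% of all genes were called in either direction. Of 12 tested replication-independent variants, 2 were higher and 1 lower: Cenpa, the centromeric H3 (log2 0.58, limma adjusted p = 0.0239), H2afv, an H2A.Z form (0.46, 0.0258), and H3f3a, an H3.3 gene (-0.25, 0.0340). Of 13 histone mRNA processing genes 1 was higher, Upf1 (0.37, 0.0389), a helicase in histone mRNA decay. The stem-loop binding protein gene Slbp did not pass, at -0.11 (limma adjusted p = 0.404). Among 18 histone chaperones 1 was higher, Rbbp4 (0.47, 0.0227), and among 9 genes of histone replacement in spermatids 1 was lower, Prm3 (-0.43, 0.0380). None of 18 S phase genes passed, although their median log2 fold was 0.27. These are log2 folds with limma adjusted p-values.

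The IP asks which of these transcripts the antibody enriched. In HET testes 1 of 13 tested histone genes, Hist1h2bp, was higher in IP than in input, and 3 were lower, Hist1h2ao, Hist1h2ba and Hist1h4a. Over all 12387 tested genes, 14.7% were higher and 15.4% lower by limma, and with 13 genes these counts were not set apart from those shares by any test. The median log2 difference was -0.00 over the histone genes and 0.02 over all genes.

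Hist1h2bp had IP signals of 395.3, 649.1 and 612.0 in HET, all above its inputs. The log2 difference was 0.92 ± 0.187 (SE, n = 3 per group), with limma adjusted p = 0.00157. Hist1h2ao (ENSMUSG00000094248), an H2A gene, had inputs of 133.6, 109.9 and 98.0 and IP signals of 26.9, 27.4 and 37.5. It was depleted in every IP library, by a log2 difference of -1.87 ± 0.269 with limma adjusted p = 9.78e-05. Hist1h2ba fell from the HET inputs above to 117.8, 111.7 and 101.8 in IP, a log2 difference of -1.02 ± 0.257 with limma adjusted p = 0.00734. Hist1h4a (ENSMUSG00000060093), an H4 gene, had inputs of 47.4, 50.8 and 49.4 and IP signals of 26.9, 26.1 and 31.3. Its log2 difference was -0.79 ± 0.234 with limma adjusted p = 0.0176, and that call was lost without HET input replicate 2 or 3 (adjusted p up to 0.0599).

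In KO testes 1 of the 13 was higher in IP and 4 were lower, against 21.2% higher and 24.3% lower over all genes. Hist1h2bp again had the higher IP, at 330.8, 224.6 and 276.6 over inputs of 196.7, 182.2 and 175.9 (log2 0.57 ± 0.187, limma adjusted p = 0.0220). That call was lost without KO input replicate 2 or 3 or KO IP replicate 1 (adjusted p up to 0.0949). Hist2h2aa1 (ENSMUSG00000064220, chromosome 3) was lower, with inputs of 97.5, 87.7 and 99.8 and IP signals of 40.4, 66.1 and 37.8 (log2 -1.01 ± 0.212, limma adjusted p = 0.00117). The groups did not overlap for that gene. Hist1h2ao was lower too, at 31.4, 55.1 and 72.1 in IP over inputs of 98.4, 99.7 and 109.6 (log2 -1.02 ± 0.269, limma adjusted p = 0.00604). The last 2 calls were of low genes: Hist1h2aa had IP signals of 5.99, 0 and 2.70, and Hist1h4d had 0, 2.20 and 2.70. Their limma adjusted p-values were 0.0246 and 0.0448. The Hist1h2aa call was lost without KO IP replicate 2 (0.0983), 1 of the 9 such fits that tested it. It was also lost without the filter (0.0517) and with DESeq2 (0.0638). The Hist1h4d call was lost without any 1 of 7 libraries (up to 0.176). These were HET input replicates 1 and 3, KO input replicates 2 and 3, HET IP replicates 2 and 3, and KO IP replicate 1. Hist1h4d was also lost with a pseudocount of 5 (0.0557), without the filter (0.0893), with edgeR (0.0541) and with DESeq2 (0.0759). Hist2h3c1 did not pass limma's test (log2 1.03 ± 0.499, adjusted p = 0.104). With 1 library left out it passed in 1 of 12 limma fits, that without KO IP replicate 2 (adjusted p = 0.00803). On the recovered reads both count-based tests called Hist2h3c1 higher. The log2 difference was 1.45 with edgeR (adjusted p = 0.0162) and 1.38 with DESeq2 (adjusted p = 0.0293).

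No histone gene passed the test of whether IP enrichment differed between KO and HET, with 0 of 13 against 9.97% of all tested genes by limma. At an unadjusted limma p under 0.05 there were 5 of 13, against 3289 of all 12387 tested genes. edgeR on the recovered reads also called 0, and DESeq2 called 2, Hist2h2aa2 and Hist2h2aa1. Hist2h2aa2 had IP signals of 1724, 1937 and 2550 in HET, each above every HET input, and of 951.9, 1163 and 1188 in KO, each below every KO input. Neither step passed limma's test on its own: IP minus input was 0.33 ± 0.141 in HET (adjusted p = 0.0864) and -0.26 ± 0.141 in KO (adjusted p = 0.141). The difference between the genotypes was a log2 value of -0.60 ± 0.200 (95% interval -1.02 to -0.17), with limma adjusted p = 0.0685 and DESeq2 adjusted p = 0.0262. With 1 library left out, limma called Hist2h2aa2 in 1 of 12 fits, that without HET IP replicate 1 (adjusted p = 0.0201). The adjusted p was up to 0.141 in the others. Hist2h2aa1, its copy, had -0.82 ± 0.300, with limma adjusted p = 0.0918 and DESeq2 adjusted p = 0.0400. Limma called Hist2h2aa1 in 1 of 12 such fits, that without KO IP replicate 2 (adjusted p = 0.0155, up to 0.191 in the others). In the same contrast 5 of 8 tested round spermatid markers were lower and none higher (median log2 -0.73 over the 8), and 1 of 7 elongating spermatid markers was lower. The summed IP signal of the 9 round spermatid markers was 17826 to 19325 in HET and 10819 to 14288 in KO. That of the 9 elongating spermatid markers was 22488 to 44735 in HET and 14114 to 14417 in KO, and no marker of either list was at 0 throughout. Their part in the histone values was not tested.

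For 6 of the 13 genes the difference was above 0, and 3 of these had an unadjusted p under 0.05. Hist1h4a, with KO IP signals of 41.9, 48.4 and 36.9, had a log2 difference of 0.96 ± 0.330 (limma adjusted p = 0.0754). Hist1h2ba had 0.89 ± 0.364 (0.130) and Hist1h2ao 0.85 ± 0.381 (0.167). With 1 library left out, Hist1h2ao was called in 1 of 12 fits, that without KO IP replicate 1 (0.0326, up to 0.323 in the others). Hist1h1t, whose IP signals were 22.4, 84.9 and 34.8 in HET and 5.99, 28.6 and 22.5 in KO, had -0.86 ± 0.733 (0.486). Larger but less certain differences were those of Hist1h4d (-1.99 ± 0.975, 0.205), Hist1h4c (-1.13 ± 0.675, 0.303) and Hist2h3c1 (1.03 ± 0.706, 0.375). Hist1h2aa had -0.81 ± 0.940 (0.622). The values in brackets are limma adjusted p-values. In the authors' deposited table, 9 histone genes have an adjusted p for this contrast, and 2 are below 0.05: Hist2h2aa2 (log2 -0.61, 0.0275) and Hist2h2aa1 (-0.86, 0.0419).

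The annotated start bases of the promoter windows can be set beside the HET IP values, as a description. The 5 tested genes with an annotated A start, Hist1h2ba with its ATG among them, had HET log2 differences between -1.15 and 0.33, and the 6 with a G start had differences between -1.13 and 0.92. The single C start, Hist1h2ao (-1.87), and the single T start, Hist1h4a (-0.79), were both lower in IP. Hist1h2bp, the 1 gene with a call for enrichment, starts at G in RefSeq, and annotated starts may not be those used in testes.

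**Figure D2:**
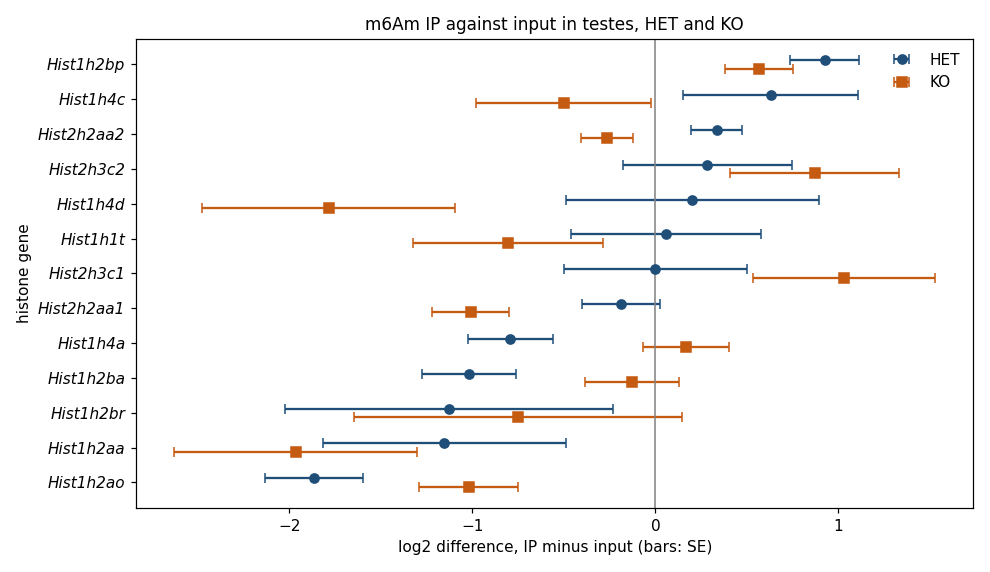
Log2 difference of IP minus input (x axis) for the 13 tested histone genes in testes (y axis); circles are HET, squares KO, and bars the SE from limma. Hist1h2bp lies above 0 in both genotypes. The Hist2h2aa2 values lie on opposite sides of 0, as do those of other genes such as Hist1h1t, Hist1h4a, Hist1h4c and Hist1h4d.

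Genes that work with histones gave calls in this contrast, where 9.97% of all genes were called. H3f3b, an H3.3 gene, had a log2 difference between genotypes of -1.31 ± 0.204 (limma adjusted p = 0.00158) and was the 1 call among 14 variants. Slbp had -1.49 ± 0.358 (limma adjusted p = 0.0170). It was 1 of 13 histone mRNA processing genes with 2 lower and 1 higher call, the others being Ncbp2 (-1.16), a cap-binding subunit, and Srrt (0.89). Of 18 chaperones 3 were higher, Hira (1.29), Ubn1 (1.08) and Daxx (0.95), all known for H3.3 deposition, and Chaf1b (-1.69), a subunit of the replication-coupled chaperone CAF-1, was lower. Brdt, a bromodomain protein of spermatids, was the 1 call (-1.38) among 9 genes of histone replacement, and none of 20 S phase genes was called. Whether these lists differ from the histone genes was not tested.

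In the brain table the largest signal fell to other cluster genes than in the testes table. Of the 67, 50 had a mean input signal of at least 10, 52 were above 0 in all 12 libraries, and Hist2h3c1 was listed at 0 in all 12. The signal was spread more evenly: Hist1h4k took 15.4% of the summed input signal, Hist2h2aa1 7.83%, Hist1h1e 7.58% and Hist1h1c 6.70%. Highest in its class by mean input signal was Hist1h1e among H1, Hist2h2aa1 among H2A, Hist3h2ba among H2B, Hist1h3h among H3 and Hist1h4k among H4. The testis genes were near 0: Hist1h1t was at most 3.78 in any library and listed at 0 in all 6 footprints, Hist1h2ba was at most 4.54, and Hist1h2aa at most 6.65. None of the 3 passed the filter. The pair Hist1h2ao and Hist1h2bq was reversed between tissues within each table: in brain inputs Hist1h2ao was listed at 0 in all 6 and Hist1h2bq lay between 110.8 and 164.7, and in testes inputs Hist1h2ao lay between 98.0 and 133.6 and Hist1h2bq between 1.77 and 9.24. The testes values are whole reads and the brain values estimates, so the counting differed between the tables. The top H2A genes, Hist2h2aa2 in testes and Hist2h2aa1 in brain, are copies, so which of them a tissue expressed is not shown.

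In brain inputs no histone gene differed between KO and WT by limma. Of 51 tested, 0 were called, against 0.255% of 15298 genes. An unadjusted limma p under 0.05 was found for 13 of the 51, and for 1606 of the 15298 genes. Summed over all 67 genes, the signal was 6126 to 6562 in WT and 5970 to 6186 in KO. H3 was the 1 class whose totals did not overlap, at 466.2 to 534.1 in WT and 388.3 to 432.2 in KO. Groups that do not overlap were seen for 17 of the 51 genes, 6 with KO above and 11 with KO below, and for 18.5% of all genes.

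The values with the smallest p were chosen for description after they were seen. Hist4h4 (ENSMUSG00000096010, chromosome 6), an H4 gene outside the main cluster, had WT inputs of 82.9, 109.8 and 81.2 and KO inputs of 171.1, 133.0 and 168.9. Every KO library was above every WT library, and the log2 fold was 0.79 ± 0.180 (SE, n = 3 per group; 95% interval 0.36 to 1.21), with limma adjusted p = 0.238. Hist1h4c, another H4 gene, had 151.2, 161.8 and 82.9 for WT and 224.0, 241.8 and 222.4 for KO (log2 0.85 ± 0.254, limma adjusted p = 0.360). Hist1h4a ran the other way, with 65.8, 76.3 and 86.6 in WT and 55.3, 44.7 and 48.2 in KO (log2 -0.61 ± 0.185, limma adjusted p = 0.363). These H4 genes, picked by their p, lay apart in both directions, and none passed the test. Groups that do not overlap occurred in 33.3% of the tested histone genes and in 18.5% of all genes. Among H4 genes KO was above in Hist1h4c, Hist1h4m and Hist4h4. It was below in Hist1h4a, Hist1h4d, Hist1h4i, Hist1h4n and Hist2h4. Of 13 tested H4 genes 5 had an unadjusted limma p under 0.05 and 0 were called. Whether the class as a whole differs was not tested. The H4 totals overlapped (2556 to 2895 in WT, 2364 to 2809 in KO).

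Outside H4, Hist1h1d, a somatic H1 gene, had 177.3, 161.0 and 151.5 for WT and 108.5, 114.2 and 129.2 for KO (log2 -0.47 ± 0.133, limma adjusted p = 0.320). Hist1h3i, an H3 gene, had 92.5, 94.3 and 83.5 for WT and 54.1, 33.6 and 59.6 for KO (log2 -0.90 ± 0.243, limma adjusted p = 0.301). The largest fitted folds were those of genes listed at or near 0 in some libraries: Hist1h2bl (23.1, 27.7 and 46.8 in WT; 10.1, 0 and 0 in KO; log2 -3.85 ± 0.977, limma adjusted p = 0.273) and Hist1h2ad (22.0, 25.7 and 27.3; 4.41, 5.61 and 14.6; -1.65 ± 0.460, 0.319). With 1 library left out, limma called Hist1h2bl in 1 of 6 fits, that without KO input replicate 1 (adjusted p = 0.0460, up to 0.561 in the others). Hist1h4n was lower (158.9, 194.9 and 299.1; 111.9, 85.8 and 109.6; log2 -1.04 ± 0.248, limma adjusted p = 0.255) while its copy Hist1h4m was 86.6 to 177.5 in WT and 182.9 to 270.0 in KO. Their sums overlapped, at 325.5 to 385.7 in WT and 274.0 to 379.6 in KO.

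In ribosome footprints the smallest p-values were those of 2 H4 genes, Hist4h4 and Hist1h4a. Of 52 tested histone genes 0 were called between KO and WT by limma, against 0.223% of 14377 genes. An unadjusted p under 0.05 was found for 9 of the 52, and for 1546 of the 14377 genes. Groups did not overlap for 9 of the 52, 3 with KO above and 6 below, against 17.2% of all genes, so the members stood at the background. Hist4h4 footprints were 123.3, 247.5 and 112.5 in WT and 393.0, 458.4 and 482.1 in KO. That is a log2 fold of 1.55 ± 0.309 (95% interval 0.82 to 2.27), with limma adjusted p = 0.239. Hist1h4a footprints were 133.0, 78.7 and 177.2 in WT and 36.0, 42.7 and 38.8 in KO. Its log2 fold was -1.63 ± 0.330 (95% interval -2.40 to -0.86), with limma adjusted p = 0.246.

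For both genes WT footprint replicate 2 was the WT library nearest to KO. Without it limma called 6 histone genes: Hist4h4 (log2 1.90, adjusted p = 0.00803), Hist1h4m (1.49) and Hist1h4k (0.52) higher, and Hist1h4a (-1.95, adjusted p = 0.0175), Hist1h1b (-1.88) and Hist1h4n (-2.33) lower. The same fit called 956 of all genes, against 32 with all libraries. With the spread taken from all 12 brain libraries, Hist4h4 (adjusted p = 0.0246) and Hist1h4a (0.0203) were called by limma among 162 genes. Hist1h4m and Hist1h4n are copies with opposite signs, and their footprint sums were 556.9 to 863.6 in WT and 578.4 to 749.9 in KO.

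Among the other genes with an unadjusted p under 0.05, Hist1h1b, a somatic H1 gene, had footprints of 200.9, 55.4 and 131.9 in WT and 45.9, 44.6 and 40.3 in KO (log2 -1.37 ± 0.451, limma adjusted p = 0.422). Hist1h4c had 247.9, 225.9 and 127.4 in WT and 334.3, 443.3 and 381.8 in KO (log2 0.99 ± 0.279, limma adjusted p = 0.392), so its KO values were above WT in footprints as in inputs. Input and footprint libraries came from the same lysates, so they do not test each other. Hist1h2bg, an H2B gene, was 161.3 to 217.2 in WT and 261.8 to 326.5 in KO (log2 0.60 ± 0.191, limma adjusted p = 0.422). Summed oligodendrocyte markers (5 genes) did not overlap between genotypes. They were 18242 to 19587 in WT and 27190 to 29045 in KO inputs, and 31212 to 46597 and 56387 to 62656 in footprints. By limma 1 of the 5 was called in inputs and 0 in footprints, against 0.255% and 0.223% of all genes. Macrophage markers (6 genes) summed to 612.8 to 716.5 in WT and 439.5 to 478.9 in KO inputs, with 0 of 5 tested genes called. Input totals of 2 other lists did not overlap either, with 0 of 5 genes called in each. These were astrocyte (9983.1 to 11370.5 in WT, 12288.8 to 12843.3 in KO) and microglia markers (1041.7 to 1154.8 in WT, 866.6 to 973.3 in KO). No marker of these lists was at 0 throughout, and their part in the histone values was not tested.

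**Figure D3:**
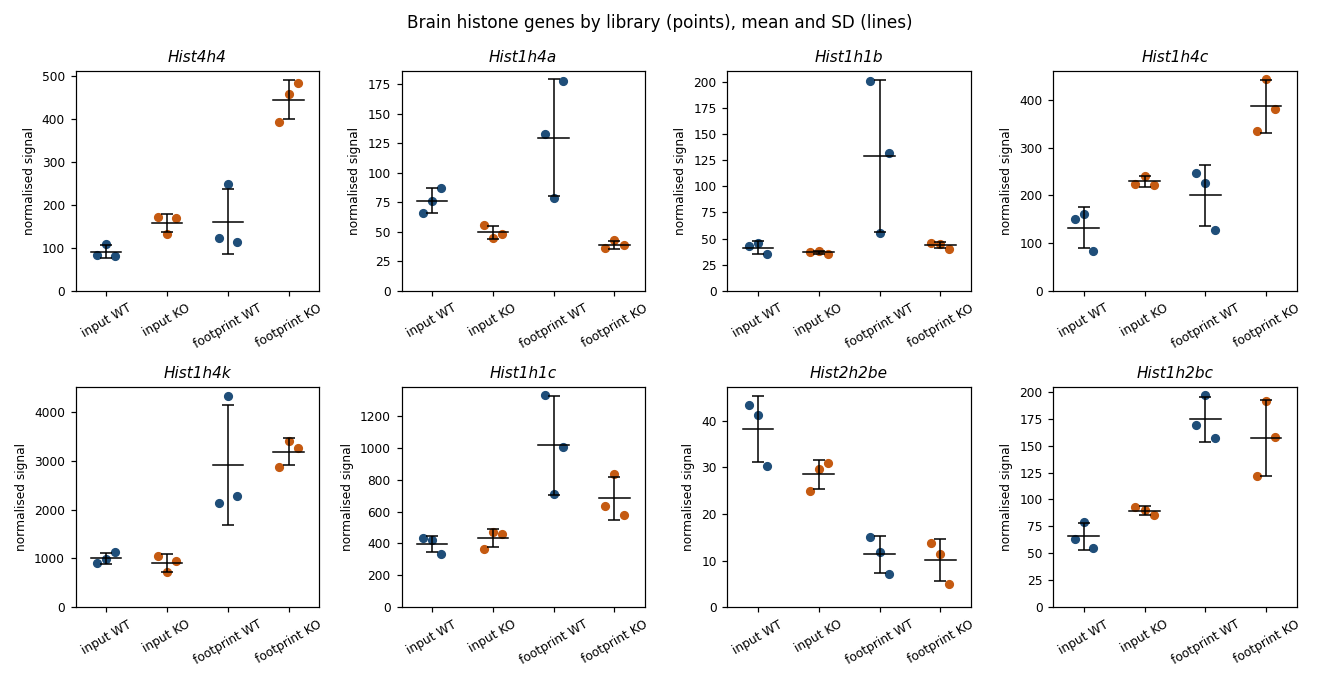
Normalised signal (y axis, each panel from 0) of 8 histone genes in the 12 brain libraries, by group on the x axis; points are libraries, the horizontal line is the mean and the error bar the SD of 3. KO points lie above WT points for Hist4h4 and Hist1h4c and below them for Hist1h4a, in inputs and in footprints.

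A single pair of copies shows how far copies can trade signal in this table. Hist2h2aa1 was 488.0, 480.6 and 486.9 in WT inputs, and Hist2h2aa2 was listed at 0 in all 6 inputs. In WT footprints the split moved, with Hist2h2aa1 at 0, 0 and 304.5 and Hist2h2aa2 at 437.4, 482.7 and 0. KO footprints had 0, 531.4 and 492.4 for the first and 452.4, 0 and 0 for the second. Their sums were 480.6 to 488.0 in WT and 443.7 to 531.1 in KO inputs. In footprints the sums were 304.5 to 482.7 in WT, with replicate 3 lowest, and 452.4 to 531.4 in KO. The footprint sums varied less than either gene. The folds of the single genes between KO and WT footprints, 3.25 ± 3.01 and -2.96 ± 3.08 on the log2 scale, therefore say nothing of either gene (limma adjusted p = 0.674 and 0.705).

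**Figure D4:**
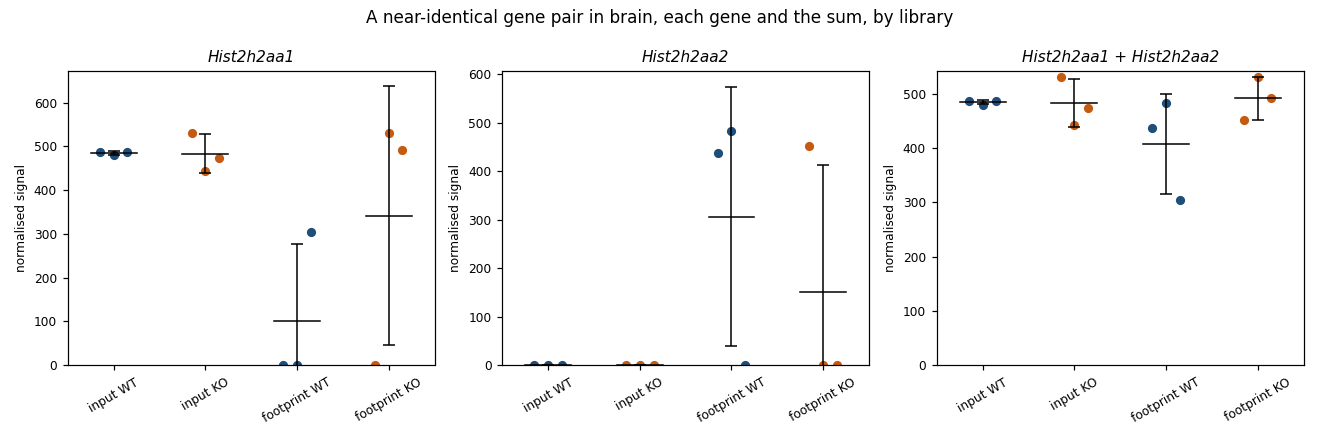
Normalised signal (y axis, each panel from 0) of Hist2h2aa1, Hist2h2aa2 and their sum in the 12 brain libraries, by group on the x axis; points are libraries, the horizontal line is the mean and the error bar the SD of 3. Single footprint libraries give all the signal to 1 gene or the other, and the sum stays between 304.5 and 531.4.

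On the deposited scaling, most histone genes had more footprint than input signal in WT brain. Of 56 tested, 28 were higher and 3 lower in footprints by limma, against 25.2% higher and 29.1% lower of 16527 genes. The median log2 difference was 0.86 over the histone genes and -0.09 over all genes. How many are called higher, and the sign of the histone median, depend on the scaling. With equal total signal per library the median moved to -0.19 over the histone genes and -1.18 over all genes, and 4 histone genes were higher and 15 lower. With equal protein-coding signal the medians were 0.60 and -0.36, with 22 histone genes higher and 6 lower. Relative to the median of all genes the histone median was 0.95 as deposited, 0.99 with equal total signal and 0.96 with equal protein-coding signal.

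By class, on the deposited scaling, all 5 tested H1 genes were higher, 8 of 14 H2B genes, 7 of 13 H4 genes, 4 of 10 H3 genes and 4 of 14 H2A genes. The class medians were 1.41 for H1, 1.13 for H2B, 0.73 for H4, 0.52 for H2A and 0.49 for H3. Hist1h1c, a somatic H1 gene, had inputs of 433.7, 420.3 and 335.9 and footprints of 1332, 709.7 and 1007. Its groups did not overlap, and the log2 difference was 1.32 ± 0.225 (SE, n = 3 per group; limma adjusted p = 0.000465). Hist1h4k, an H4 gene, had inputs of 897.0, 980.6 and 1122 and footprints of 2140, 4334 and 2280 (log2 1.47 ± 0.244, limma adjusted p = 0.000372). The H2B gene Hist1h2bq went from 140.1, 122.9 and 110.8 to 645.4, 442.3 and 607.9. That was the smallest p among the histone genes, at a log2 difference of 2.16 ± 0.157 with limma adjusted p = 6.64e-07, and with its copy Hist1h2br counted in, WT inputs were 120.4 to 149.8. The H3 gene Hist1h3h went from 106.1, 140.1 and 100.5 to 588.8, 335.9 and 418.7 (log2 1.92 ± 0.252, limma adjusted p = 6.7e-05). Hist1h1e (0.66), Hist1h1a (1.41), Hist1h1b (1.45) and Hist1h1d (1.47) were the other H1 calls, and these are log2 differences.

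The other calls were spread over the classes. For H2B they were Hist1h2bn (1.53), Hist1h2bc (1.40), Hist1h2bg (1.24), Hist2h2bb (1.12), Hist3h2ba (0.88), Hist1h2bj (1.80) and Hist1h2bm (1.02). For H4 they were Hist1h4b (2.04), Hist1h4d (0.90), Hist1h4f (0.88), Hist2h4 (0.86), Hist4h4 (0.73) and Hist1h4h (0.54). For H3 they were Hist1h3i (1.01), Hist1h3e (1.00) and Hist2h3b (0.86), and for H2A Hist1h2af (3.33), Hist1h2ak (1.77), Hist2h2ab (0.94) and Hist3h2a (0.80). Each value is a log2 difference with limma adjusted p below the threshold. With equal total signal 12 of the 28 genes had the other sign, among them Hist1h1e (-0.41), Hist1h4h (-0.54) and Hist4h4 (-0.33). Leaving out 1 library also ended 5 of these calls. Hist1h4h was called in 2 of 12 such fits, those without WT input replicate 2 or WT footprint replicate 2, and Hist4h4 in 7 of 12. The Hist4h4 call was lost without WT input replicate 1 or 3, WT footprint replicate 2, KO input replicate 3 or KO footprint replicate 2. Hist2h3b was lost without WT input replicate 1 or WT footprint replicate 1 or 2, Hist1h2bm without WT input replicate 2 or WT footprint replicate 1, and Hist2h2ab without WT input replicate 1 (limma adjusted p up to 0.162 over these fits).

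The 3 genes called lower in footprints on the deposited scaling were 2 H2A genes and 1 H2B gene. Hist2h2be (ENSMUSG00000068854, chromosome 3) had inputs of 43.3, 41.2 and 30.3 and footprints of 15.0, 11.9 and 7.19. No footprint library reached an input library, and the log2 difference was -1.70 ± 0.388 (limma adjusted p = 0.00319). Hist2h2ac had inputs of 61.1, 74.2 and 70.8 and footprints of 48.1, 27.2 and 45.9 (log2 -0.79 ± 0.280, limma adjusted p = 0.0332), a call lost without any 1 of the WT inputs or WT footprint replicate 2 (up to 0.103). Hist1h2ad had inputs of 22.0, 25.7 and 27.3 and footprints of 14.2, 0 and 2.63 (log2 -2.77 ± 0.803, limma adjusted p = 0.0127).

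**Figure D5:**
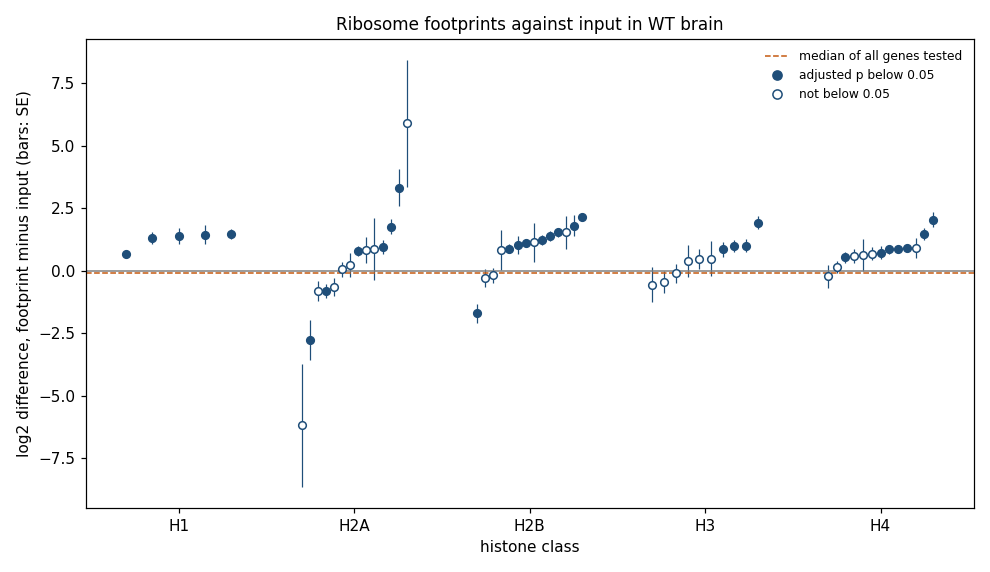
Log2 difference of footprint minus input in WT brain (y axis) for the 56 tested histone genes, by class on the x axis; points are genes, bars the SE from limma, filled points have adjusted p below 0.05, and the dashed line is the median of all tested genes. All 5 H1 genes are filled and above the line, and the 2 extreme open H2A points are the pair Hist2h2aa1 and Hist2h2aa2.

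Translational efficiency, the footprint to input ratio, was then compared between KO and WT. The labels do not say which input and footprint library share a lysate, so this fit and that of footprint against input treat the 12 libraries as independent. None of 56 tested histone genes passed limma's test, against 0.188% of all 16527 genes. An unadjusted p under 0.05 was found for 6 of the 56, and for 1616 of the 16527 genes. The median log2 difference was 0.03 over the histone genes and -0.00 over all genes. Hist1h4a had -1.02 ± 0.387 (95% interval -1.87 to -0.17; limma adjusted p = 0.491) and Hist1h1b had -1.22 ± 0.530 (limma adjusted p = 0.500), and Hist1h1a had -1.01 ± 0.458 (limma adjusted p = 0.510). For Hist1h3i the difference was 1.03 ± 0.382 (limma adjusted p = 0.487). Hist1h2bl (3.46 ± 1.11) and Hist1h2an (-3.88 ± 1.74) were listed at 0 in some libraries, and Hist2h2aa1 (3.26 ± 3.47) is a gene of the pair above. Without WT footprint replicate 2 limma called Hist1h1b (-1.73), Hist1h4a (-1.34) and Hist4h4 (1.12), among 874 genes. Without KO input replicate 1 it called Hist1h2bl (4.61, adjusted p = 0.0111), the 1 of 12 such fits that did. In the authors' deposited table, 55 histone genes have an adjusted p for this contrast and 0 are below 0.05.

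Genes that work with histones were not called between KO and WT brain. None of the 10 tested variants, 16 processing genes, 17 chaperones or 16 S phase genes passed in inputs, and none passed in footprints or in translational efficiency. Of all genes, 0.255%, 0.223% and 0.188% passed. Some summed signals still did not overlap. Input totals in WT and KO were 3129 to 3243 and 3287 to 3443 for variants, and 3667 to 3930 and 3943 to 4144 for processing genes. For chaperones they were 5785 to 6040 and 6280 to 6369. Processing footprints ran the other way, at 4461 to 5336 and 4214 to 4400. On the deposited scaling, the 1 run for these lists, 5 of 11 variants in WT brain were higher in footprints than in inputs and 1 was lower, among them H1fx (log2 2.97), a linker variant. Of 17 chaperones 11 were higher and 2 lower, the lower ones being Hira (-2.02) and Ubn1 (-1.92). These counts stand beside 25.2% higher and 29.1% lower over all genes, and no test set a list apart from those shares. Slbp, which binds the histone stem-loop, had a log2 difference of 1.19 ± 0.139 (limma adjusted p = 2.81e-05). It was 1 of 6 higher calls among 16 processing genes, of which 2 were lower. Of 20 S phase genes 6 were higher and 3 lower.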

How the data were processed

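Of 42 samples in 14 groups, 24 libraries in 8 groups of 3 were used, and 18 tissue RNA-seq libraries were not analysed here. The authors deposited, for each gene and library, a normalised signal, that is, scaled reads. In testes all values were whole multiples of 1 read (tolerance 0.01), and in brain 7.74 to 15.6% were, so brain reads are estimates. The authors also deposited log2 fold changes and adjusted p-values for their own comparison in each table. Per the submitters' processing notes, the tools were STAR, DESeq, DESeq2 1.25.10, Salmon 0.12.0 and R 3.6.2, with no table named for any. Genome build, annotation, strand and poly(A) selection: not given in the sources used here.

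Differences were tested with limma 3.58.1 (R 4.3.3, mean-variance trend) on log2(signal + 1), which understates changes of low genes. Genes needed 3 or more libraries of the fit with a signal of 10 or higher, and p-values were adjusted by Benjamini-Hochberg over all tested genes at 0.05. KO was set against control in fits of 6 libraries, and IP or footprint against input, with the genotype difference of each, in fits of 12. The model was tested on simulated data. Alternatives were another pseudocount, no filter, other scalings, the spread of 12 libraries, each library left out, copies summed, and for testes edgeR 4.0.16 and DESeq2 1.42.0 on recovered reads. Equal protein-coding signal and summed copies were chosen after seeing the data. Genes named are those past a test, the 3 testis genes, the gene of largest mean input signal in each class, and up to 3 with the largest folds per comparison. Others were chosen after their values were seen. The members and lists were chosen with earlier results of these data known. Each testes library has its own label. The labels do not say that each is another animal or which input and IP libraries go together. The fits treat the testes libraries as independent, so their p-values measure the spread between libraries.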

Additional observations from a re-analysis of the deposited data

Results flagged for a closer look

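For Hist2h2aa2 in testes, every HET IP library was above every HET input and every KO IP library was below every KO input. Neither step passed limma's test on its own, with an adjusted p of 0.0864 in HET and 0.141 in KO. The difference in IP enrichment, KO against HET, was -0.60 on the log2 scale, and limma's test of that difference gave an adjusted p of 0.0685, which misses the threshold. Whether reads of its copy Hist2h2aa1 were counted for it in testes was not tested. The sums of both genes were 1833 to 2654 in HET IP and 992.4 to 1229 in KO IP libraries.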

How the results depend on the processing

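No paired analysis was possible because the labels carry no replicate numbers that tie libraries of different groups, also where brain inputs and footprints came from the same lysates. Over the single genes named, 1305 values under an alternative kept direction and side of the threshold, 76 lost the call, 24 gained one and 18 changed sign. With the spread from all 12 libraries, testes inputs had 0 histone calls and 25 over all genes, and brain footprints 2 and 162. IP enrichment had 2 histone calls with DESeq2 and 793 calls over all genes without the filter. Equal total signal gave 21 calls over all genes in brain footprints and 19 histone calls for footprint against input. It also turned these footprint to input differences in WT: Hist1h1e -0.41, Hist1h3e -0.063, Hist1h3i -0.055, Hist1h4d -0.18, Hist1h4f -0.19, Hist1h4h -0.54, Hist2h2ab -0.11, Hist2h3b -0.20, Hist2h4 -0.21, Hist3h2a -0.27, Hist3h2ba -0.19 and Hist4h4 -0.33. Hist1h1t in HET IP became -0.036 with that scaling, and ran from -0.46 to 0.48 with 1 library left out. Hist1h2ba in KO IP ran from -0.51 to 0.069 in the same way. Hist1h4m in footprints was -0.14 with copies summed. The cause of these changes was not tested.

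With 1 library left out, histone calls and calls over all genes ran from 1 to 3 and from 281 to 1433 in testes inputs, 3 to 5 and 2671 to 4175 for IP in HET, 2 to 6 and 4444 to 5934 for IP in KO, and 0 to 1 and 546 to 1729 for IP enrichment. In brain they ran from 0 to 1 and 7 to 24 in inputs, 0 to 6 and 0 to 956 in footprints, 27 to 35 and 7803 to 9281 for footprint against input, and 0 to 3 and 15 to 874 for translational efficiency. In testes inputs 11 of 52 genes passed the filter on low values, and the others were not tested in that comparison.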
